A study of Homo sapiens with 36 samples.

Results

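GW3965 was compared with its vehicle, DMSO, in BxPC-3, an established line of human pancreatic ductal adenocarcinoma. The comparison used 6 of the 36 RNA sequencing libraries of the series, 3 with GW3965 and 3 with DMSO, taken by the line and treatment in their titles. It is described across the 18042 genes that passed a filter on low counts. GW3965 is a synthetic agonist of the liver X receptors (LXRs). BxPC-3 cells were cultured in RPMI 1640 with 10% FBS at 37 °C in 5% CO2 and received GW3965 at 10 µM or DMSO alone, and RNA was taken after 48 h. The labels give no genotype for the cells and state no deletion or transgene shared by the groups. A library was made from 500 ng of total RNA with a stranded kit. The same line also received 1E5 or 3A4, known only by these codes and described in the labels as inverse agonists of the LXRs, at the same dose and time. MIA PaCa-2 and PANC-1, a pair of further lines of the same cancer, received all 4 treatments in another medium, so line and medium cannot be told apart.

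The LXRs, encoded by NR1H3 and NR1H2, are nuclear receptors for oxysterols that bind DNA together with the retinoid X receptors. With an agonist they raise transcription of sterol exporters such as ABCA1 and of SREBF1, which switches on fatty acid synthesis. Interferon signalling works through another route, in which a complex that holds STAT2 and IRF9 binds the interferon-stimulated response element and induces antiviral genes. Cells short of amino acids use a further factor, ATF4, which pairs with C/EBP proteins on its own element in genes such as ASNS.

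Promoter sequences of 8 genes that changed with GW3965 are shown because each holds the core of 1 of these elements, which not every gene described below does. They come from RefSeq (GRCh38.p14), are written 5′ to 3′ on the strand given, and carry 20 bases on either side of the outermost match. Capitals mark the matches on either strand, and matches may overlap. The first holds the LXR element AGGTNANNNNNGGTNA, a direct repeat with a 4-base spacer, on the reverse strand.
ABCA1, chr9:104928189-104928244, minus strand: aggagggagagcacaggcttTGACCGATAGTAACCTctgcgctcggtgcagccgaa
The next holds the C/EBP-ATF core TGATGNAA.
ASNS, chr7:97872449-97872496, minus strand: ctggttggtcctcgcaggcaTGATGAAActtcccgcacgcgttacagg
The other 6 hold the core of the interferon-stimulated response element, GAAANNGAAA.
ISG15, chr1:1013364-1013419, plus strand: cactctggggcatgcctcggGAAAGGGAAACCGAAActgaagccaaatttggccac
IFIT3, chr10:89327821-89327904, plus strand: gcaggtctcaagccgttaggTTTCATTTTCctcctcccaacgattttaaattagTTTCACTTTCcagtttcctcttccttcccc
IFIT1, chr10:89392487-89392549, plus strand: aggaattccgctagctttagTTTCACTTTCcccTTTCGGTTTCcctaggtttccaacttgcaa
IFI27, chr14:94110608-94110670, plus strand: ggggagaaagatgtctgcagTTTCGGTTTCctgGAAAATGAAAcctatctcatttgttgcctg
CXCL10, chr4:76023689-76023738, minus strand: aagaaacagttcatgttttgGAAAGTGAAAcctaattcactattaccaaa
TAP1, chr6:32853803-32853858, minus strand: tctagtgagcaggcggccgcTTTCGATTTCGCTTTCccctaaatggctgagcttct
ABCA1 and ASNS rose with GW3965 and the other 6 fell. Counted from the start site, the matches lie between positions -221 (CXCL10) and -54 (ABCA1). A match of letters is a description of the sequence and not a measured site of binding.

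The 6 libraries held 20842952 to 25332026 counts, and 6.80% to 8.32% of them fell on mitochondrially encoded genes. No pair of replicates agreed within sampling noise (chi-square per degree of freedom 28.3 to 59.4). GW3965 replicate 3 stood apart from the other 11 BxPC-3 libraries on the second principal component, which held 12.5% of the variance (score -60.7, the others -18.7 to 33.2). GW3965 replicate 1 held 82.1 CPM of the small nuclear RNA gene RN7SK against 1.38 to 2.98 CPM in the other 5 (not called; edgeR adjusted p = 0.26), a gene chosen after its values were seen. Ductal epithelial markers, such as keratins and EPCAM, summed to 6010 to 7412 CPM over the 6 libraries. Of 20 markers of other cell types 11 were measured, at 45.4 to 49.1 CPM in sum with DMSO and 41.4 to 50.2 CPM with GW3965, and none was called by edgeR, with 1 at an unadjusted p under 0.05 and none by DESeq2 or limma-voom. The leukocyte marker PTPRC, the fibroblast marker PDGFRB, the acinar markers CPA1 and CELA3A, and ALB had no count. SMAD4, CDKN2A, CDKN2B and MTAP had no count in any of the 6.

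Levels are counts scaled to the TMM-adjusted library total and given as CPM, given for replicates 1, 2 and 3 in that order or as mean ± SD (n = 3). They are not divided by gene length and are compared between groups, not between genes. A gene is called where its Benjamini-Hochberg adjusted p from edgeR's quasi-likelihood test is under 0.05. In bulk samples, fewer cells of a type and less RNA per cell cannot be told apart.

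GW3965 changed 239 of the 18042 genes (1.32%). It raised 86 (0.477%) and lowered 153 (0.848%), and 26 rose and 96 fell by at least 2-fold. The median log2 fold change of all genes tested was -0.004, and the median standard error (SE) of a gene was 0.204. In all 239 called genes the GW3965 libraries did not overlap those with DMSO. Over all genes tested, 1558 lay higher without overlap (8.64%) and 1568 lower (8.69%). At an unadjusted p under 0.05 edgeR put 1080 of the 18042 genes higher and 1097 lower. The counts given for each gene list are to be read beside these values over all genes. Protein-coding genes made up 225 of the called genes, and 87 of the 239 were members of the 28 gene lists described below. The highest rises were in lipid genes and the lowest values in interferon-induced genes, as the plot of fold change against level shows. The number called fell whichever single library was left out, by amounts that differed between libraries. A smaller group also gives fewer calls, and these fits do not separate that from the effect of a particular library. Leaving out DMSO replicate 1, 2 or 3 gave 68, 90 and 151, and leaving out GW3965 replicate 1, 2 or 3 gave 124, 112 and 84. In each of those fits 48 genes were called, among them ABCA1, FASN, ME1, FADS3, PLIN2, USP18, RIGI, IFIT1, IFIT3, ISG15, HERC6, OAS2, GBP4, CMPK2 and SP110.

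**Figure D1:**
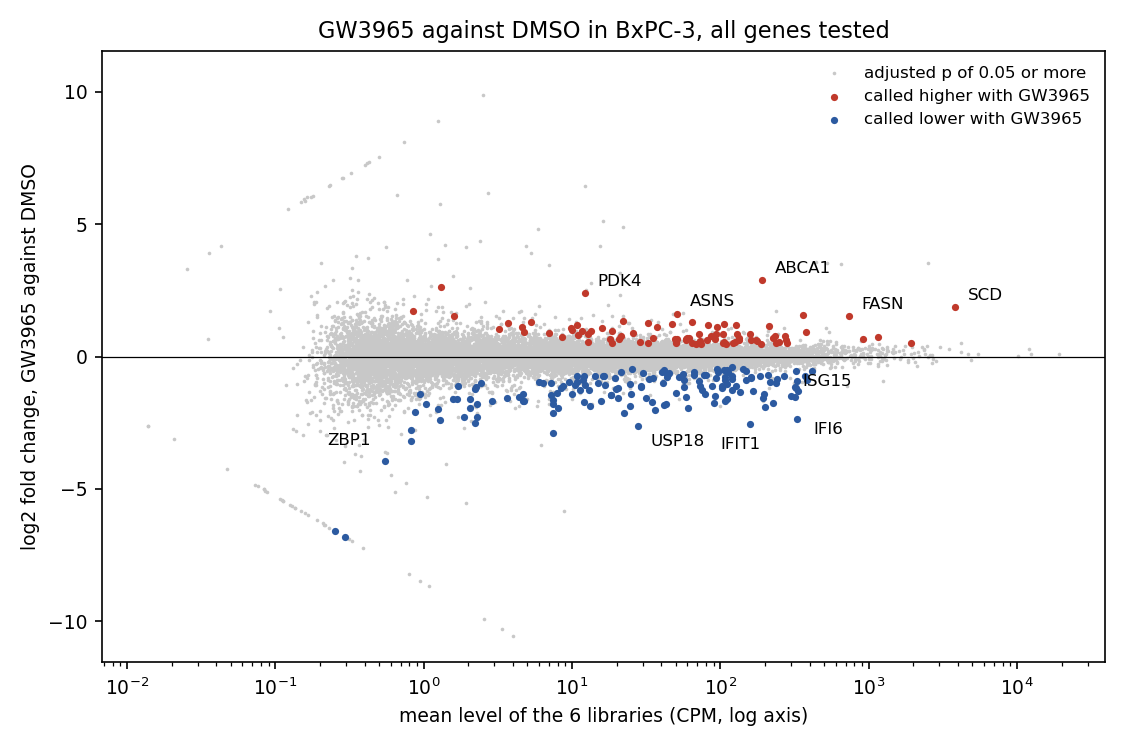
Log2 fold change of GW3965 against DMSO (vertical) by the mean level of the 6 BxPC-3 libraries in CPM (horizontal, log axis), 1 point a gene, for all 18042 genes tested. The 86 genes called higher (red) include ABCA1, PDK4, SCD and FASN, and the 153 called lower (blue) include IFIT1, IFI6 and USP18; points on the slanted lines at the left have no count in 1 of the groups.

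The question of the comparison was which genes respond to an LXR agonist, and the first list held targets of the receptors in sterol and lipid export. Of its 10 measured genes 4 rose, none fell, and the median log2 fold change was 0.55 against -0.004 for all genes. ABCA1 (ENSG00000165029, chr9:104781002-104928237 on GRCh38), which exports cholesterol to apolipoproteins, was at 32.2, 47.6 and 54.9 CPM with DMSO and at 355, 327 and 329 CPM with GW3965. Its log2 fold change of 2.91 ± 0.30 (SE; 95% interval 2.26 to 3.55; edgeR adjusted p = 0.00306) was above that of every other called gene whose mean reached 2 CPM. MYLIP (chr6:16129125-16148248), a ubiquitin ligase whose substrate is the LDL receptor, went from 21.1, 24.6 and 25.1 CPM to 46.9, 56.0 and 50.2 CPM (2.16-fold; adjusted p = 0.0228). In both genes every GW3965 library was above every DMSO library. LPCAT3, which puts polyunsaturated chains into membrane phospholipids, rose from 106.5, 122.5 and 113 CPM to 166.5, 233 and 211 CPM (1.79-fold; edgeR adjusted p = 0.0134). PLTP, a phospholipid transfer protein, rose from 218, 218 and 210.5 CPM to 294, 318 and 392.2 CPM (1.553-fold; edgeR adjusted p = 0.0277). The 6 members that did not pass included sterol exporter ABCG1, at 9.13, 11.8 and 6.25 CPM with DMSO and 6.84, 13.2 and 6.50 CPM with GW3965, where the groups overlapped. Apolipoprotein gene APOE was near the detection limit, at 0.208, 0.0831 and 0.910 CPM against 0.256, 1.04 and 1.01 CPM. The 4 calls fell to 1 without DMSO replicate 1, GW3965 replicate 2 or GW3965 replicate 3 and to 2 without DMSO replicate 2 or 3. MYLIP lost its call without any 1 of the 6 libraries (adjusted p up to 0.113), PLTP without any but GW3965 replicate 1 (up to 0.113), and LPCAT3 without DMSO replicate 1, GW3965 replicate 2 or 3 (up to 0.0765).

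The receptors themselves did not pass the test. NR1H2, which encodes LXR beta, was at 45.1, 49.0 and 47.9 CPM with DMSO and 43.0, 58.0 and 67.4 CPM with GW3965 (log2 0.25 ± 0.14; 95% interval -0.06 to 0.55). NR1H3, which encodes LXR alpha and is itself an LXR target, was at 3.17, 5.65 and 3.16 CPM against 3.42, 7.48 and 5.75 CPM (log2 0.47 ± 0.32; interval -0.23 to 1.18). Both pairs of groups overlapped. None of the 15 measured receptors, retinoid X receptors and coregulators was called by edgeR, 2 lay higher and none lower at an unadjusted p under 0.05, and DESeq2 and limma-voom called none.

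Of 22 measured members of the lipogenic list 5 rose and none fell (median log2 0.37), against 0.477% of all genes tested called higher. Of the 22, 11 lay higher without overlap, against 8.64% of all genes tested. SREBF1 (chr17:17810399-17837002), the transcription factor that induces these enzymes, went from 156, 220.5 and 165 CPM to 465, 616 and 534 CPM. ACACA, which makes malonyl-CoA, went from 193, 198 and 212 CPM to 321, 347 and 355 CPM (1.70-fold; edgeR adjusted p = 0.01155). FASN, which builds palmitate from it, went from 346, 386.5 and 393 CPM to 887.5, 1033 and 1370 CPM (2.92-fold; adjusted p = 0.00355). Each of the 3 GW3965 libraries was above each DMSO library in these genes. SCD, which desaturates stearate and palmitate, went from 1334, 1857 and 1700 CPM to 5246, 6586 and 6304 CPM (3.71-fold; adjusted p = 0.0241). ME1, a cytosolic source of NADPH, was at 40.8, 46.8 and 47.4 CPM with DMSO and 75.4, 73.9 and 71.9 CPM with GW3965 (1.64-fold; edgeR adjusted p = 0.00355). ACLY, which supplies cytosolic acetyl-CoA, was not called (log2 0.36; adjusted p = 0.32), nor were ACSS2 (0.73; 0.15), LPIN1 (1.17; 0.10) or the elongase gene ELOVL6 (-0.06; 0.94). Without DMSO replicate 1 there were 2 calls, and without DMSO replicate 2 or GW3965 replicate 3 there were 3. SCD lost its call without any 1 of the 6 libraries (adjusted p up to 0.121), SREBF1 without DMSO replicate 1 (0.0685), and ACACA without DMSO replicate 1, DMSO replicate 2 or GW3965 replicate 3 (up to 0.0685).

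Enzymes that desaturate and activate long fatty acids were raised in 3 of 13 measured cases, with none lower (median log2 0.25). FADS3, a member of the fatty acid desaturase cluster, was at 20.3, 20.5 and 16.5 CPM with DMSO and at 41.2, 54.6 and 42.8 CPM with GW3965 (2.42-fold; edgeR adjusted p = 0.00306). Its neighbours FADS1 and FADS2, which carry out the known steps of polyunsaturated fatty acid synthesis, had log2 fold changes of 0.38 and 0.25 and did not pass (adjusted p = 0.33 and 0.69). ACSL3, an acyl-CoA synthetase of lipid droplets, went from 254, 267 and 263 CPM to 496, 539 and 451 CPM (1.90-fold; adjusted p = 0.0104). ACSL1, an acyl-CoA synthetase of mitochondria and ER, went from 55.4, 65.2 and 57.4 CPM to 112, 149 and 131 CPM (2.20-fold; adjusted p = 0.0417). The groups did not overlap in the 3 called genes. Without DMSO replicate 1 only FADS3 was called of the list, ACSL3 then being at an adjusted p of 0.0611, and ACSL1 lost its call without any 1 of the 6 libraries (up to 0.169).

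In the list of fat storage and fatty acid oxidation 4 of 22 measured genes rose and none fell (median log2 0.20). PLIN2, which coats lipid droplets, went from 26.5, 23.2 and 35.0 CPM to 65.7, 64.3 and 68.6 CPM. PDK4, a kinase that shuts pyruvate out of the citric acid cycle, went from 2.17, 4.32 and 5.06 CPM to 18.3, 26.7 and 17.0 CPM (5.35-fold; log2 2.42 ± 0.42; edgeR adjusted p = 0.0188). ANGPTL4, a secreted inhibitor of lipoprotein lipase, went from 10.0, 8.39 and 12.5 CPM to 18.7, 18.4 and 27.9 CPM (2.10-fold; adjusted p = 0.0400). All 3 of these are also known targets of the fatty acid receptors of the PPAR family. ACADVL, the first enzyme of mitochondrial beta-oxidation of very long chains, went from 124, 128 and 126 CPM to 182, 205 and 199.7 CPM (1.552-fold; adjusted p = 0.0112). CPT1A, which admits fatty acids to mitochondria, was at the edge of the threshold (log2 0.60 ± 0.13; adjusted p = 0.0523). Without DMSO replicate 1 there was 1 call, and without DMSO replicate 2 or GW3965 replicate 2 there were 2. PDK4 lost its call without DMSO replicate 1, DMSO replicate 2 or GW3965 replicate 2 (adjusted p up to 0.0823), ANGPTL4 without any but DMSO replicate 3 (up to 0.150) and ACADVL without DMSO replicate 1 (0.0629).

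Of 26 measured genes of sterol synthesis and uptake edgeR called none, the median log2 fold change was 0.04, and the summed level was 3118 ± 160 CPM with DMSO and 3303 ± 314 CPM with GW3965. At an unadjusted p under 0.05, 4 were higher and 2 lower, DESeq2 called 2 higher and limma-voom 1 higher. LSS, which closes the sterol ring and makes lanosterol, came nearest (log2 0.91 ± 0.20; edgeR adjusted p = 0.0504). The plot of lipid genes by library shows ABCG1 and APOE beside the genes that rose.

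**Figure D2:**
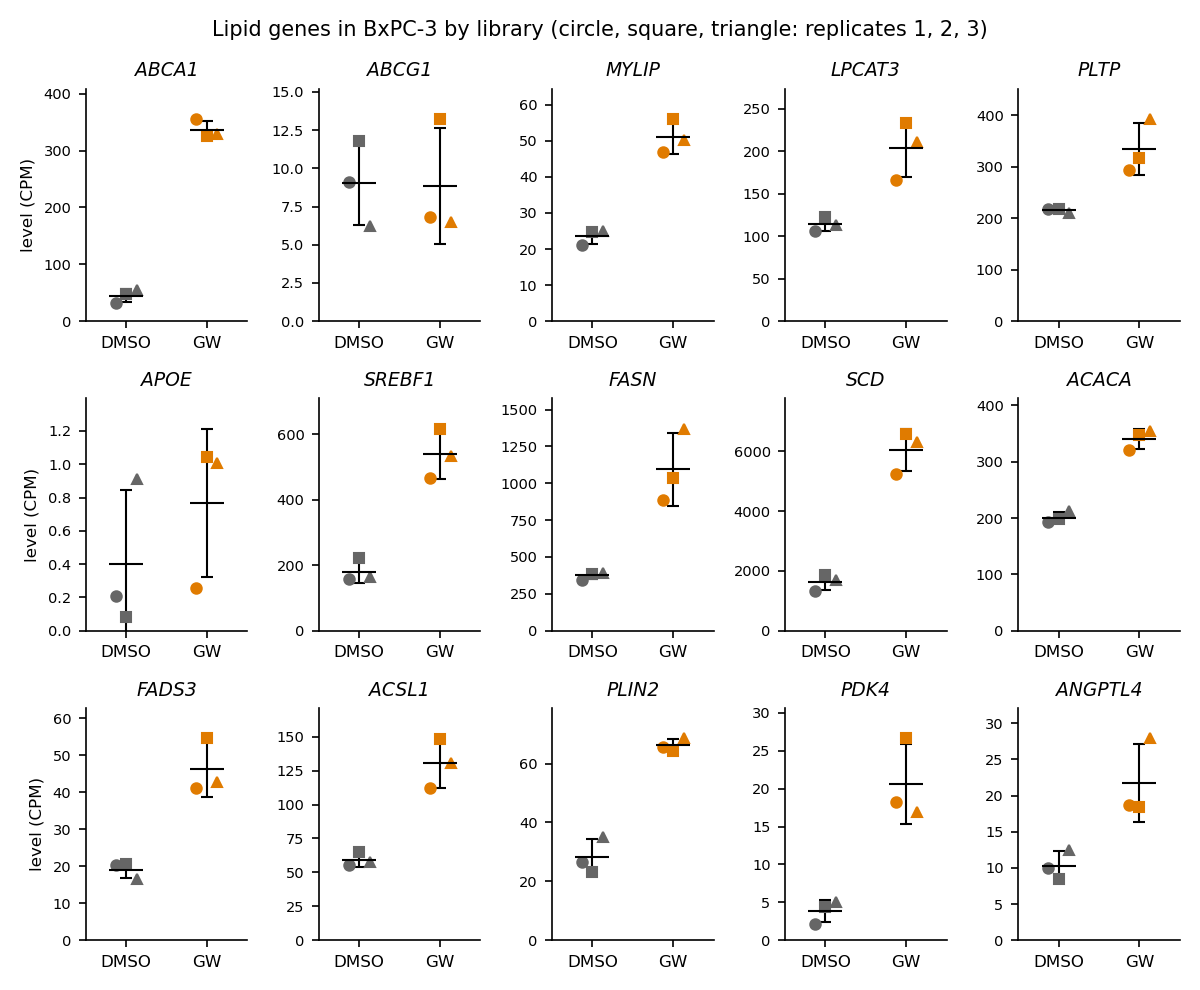
Levels in CPM (vertical, from 0) of 15 lipid genes in each BxPC-3 library with DMSO (grey) or GW3965 (orange, "GW"); circle, square and triangle are replicates 1, 2 and 3, and bars are mean and SD. The GW3965 points lie above all DMSO points in 13 panels, from ABCA1 (44.9 to 337 CPM in the mean) to PLTP, and overlap them in ABCG1 and APOE.

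Most interferon-induced effectors on the list fell. All 54 genes of the list were measured, 39 fell, none rose, and all 54 had an estimate below 0, with a median log2 fold change of -1.15 against -0.004 for all genes. In 51 of the 54 every GW3965 library was below every DMSO library, against 8.69% of all genes tested. Summed over the list, levels were 11620, 10380 and 8225 CPM with DMSO and 4269, 5378 and 3952 CPM with GW3965. DMSO replicate 1 was the highest control in most of these genes and DMSO replicate 3 the lowest, so the controls themselves spread widely.

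IFIT1 (ENSG00000185745, chr10:89392546-89406486), which binds viral RNA that lacks a host cap, was at 382, 232 and 194 CPM with DMSO and 47.3, 64.4 and 26.4 CPM with GW3965. Its partner IFIT3 was at 423, 280 and 240 CPM against 85.3, 104 and 62.7 CPM (3.74-fold lower; edgeR adjusted p = 0.00416). ISG15 (chr1:1001138-1014540), a ubiquitin-like protein attached to other proteins, was at 462, 325.5 and 259 CPM against 95.4, 119 and 99.2 CPM. All 3 GW3965 libraries were below all 3 DMSO libraries in these genes. HERC6, of a family of ligases that attach ISG15, went from 208, 152 and 131 CPM to 54.0, 56.6 and 43.5 CPM (3.19-fold lower; adjusted p = 0.00306). OAS2, which makes the oligoadenylate signal that activates RNase L, went from 487, 454 and 385 CPM to 154, 200.3 and 121 CPM (2.79-fold lower; edgeR adjusted p = 0.00355). CMPK2, a nucleotide kinase, went from 18.8, 24.1 and 19.4 CPM to 6.03, 7.06 and 3.98 CPM (3.64-fold lower; adjusted p = 0.00355). GBP4, a guanylate-binding protein, went from 65.6, 64.1 and 69.0 CPM to 18.9, 23.3 and 15.9 CPM (3.42-fold lower; edgeR adjusted p = 0.00306), the narrowest controls of this set. SP110, a nuclear body protein, went from 47.3, 37.7 and 35.2 CPM to 19.7, 19.0 and 15.6 CPM (2.21-fold lower; adjusted p = 0.00355). These 8 genes were called in every fit that left out 1 library.

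Among the more abundant effectors, IFI6 went from 696, 604.5 and 341 CPM to 83.0, 160 and 73.5 CPM (5.19-fold lower; edgeR adjusted p = 0.0244). IFI27 went from 559, 508 and 364.5 CPM to 153, 244 and 186 CPM (2.45-fold lower; adjusted p = 0.0103). SAMD9, an antiviral factor, went from 463, 494 and 541 CPM to 258, 291.5 and 269 CPM (1.83-fold lower; adjusted p = 0.0402). The GW3965 libraries of all 3 were below the controls. The other called effectors lay between TRIM25, a ligase that helps activate the sensor RIG-I (1.38-fold lower), and RSAD2, which makes an antiviral nucleotide (4.43-fold lower; 51.9, 35.1 and 23.6 CPM against 8.25, 11.8 and 4.84 CPM). They included MX1, a GTPase that traps viral capsids, and BST2, which tethers budding virions. The genes of RSAD2 and CMPK2 overlap in the annotation, so their counts may share reads. Of the 15 members not called, IFI44L was nearest (log2 -1.66; adjusted p = 0.0533), and the estimate was closest to 0 in RNF213 (-0.20; adjusted p = 0.61). The 39 calls became 17, 23 and 38 without DMSO replicate 1, 2 or 3 and 19, 33 and 14 without GW3965 replicate 1, 2 or 3. IFI6 lost its call without either of DMSO replicates 1 and 2 or GW3965 replicates 1 and 3 (adjusted p up to 0.113), as did RSAD2 (up to 0.0861). MX1 lost its call without GW3965 replicate 1 or 3 (up to 0.0742), IFI27 without GW3965 replicate 3 (0.0514), BST2 without either of DMSO replicates 1 and 2 or GW3965 replicates 1 and 3 (up to 0.148), and SAMD9 and TRIM25 without any 1 of the 6 libraries (up to 0.136 and 0.150).

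Of 16 receptors, kinases, factors and inhibitors of the interferon pathway 2 fell and none rose (median log2 -0.11). USP18, which removes ISG15 and blocks the type I receptor, went from 75.5, 36.7 and 32.3 CPM to 9.27, 8.71 and 5.70 CPM, with no overlap between the groups. STAT2 and IRF9 had log2 fold changes of -0.65 and -0.69 and did not pass (edgeR adjusted p = 0.10 and 0.21). The receptor chains IFNAR1 (-0.11), IFNAR2 (0.09), IFNGR1 (-0.16) and IFNLR1 (0.11) and the kinases JAK1 (-0.05) and TYK2 (0.10) lay near 0. Of 7 interferon genes 1, IFNL1, passed the filter, at a summed level over the 7 of 0.208 to 0.541 CPM with DMSO and 0.142 to 0.299 CPM with GW3965. It was not called by edgeR (adjusted p = 0.61), and no interferon gene was at an unadjusted p under 0.05 or called by DESeq2 or limma-voom. Without GW3965 replicate 3 the list of transducers held 1 call.

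Sensors of foreign nucleic acid and interferon regulatory factors fell in 7 of 19 measured cases and rose in none (median log2 -0.46). RIGI, which senses uncapped RNA, went from 218, 144 and 143.5 CPM to 65.4, 61.7 and 37.4 CPM (3.07-fold lower; edgeR adjusted p = 0.00669). IFIH1, the sensor of long double-stranded RNA, went from 120.5, 95.1 and 83.1 CPM to 42.5, 57.5 and 36.7 CPM (2.18-fold lower; adjusted p = 0.0193). DHX58, their regulator, went from 28.2 ± 6.92 CPM to 12.4 ± 2.95 CPM (2.27-fold lower; adjusted p = 0.0299). The groups did not overlap in these 3 members of 1 family. DDX60, a helicase linked to RIG-I signalling, went from 450, 465 and 430 CPM to 188, 235 and 173 CPM (2.26-fold lower; edgeR adjusted p = 0.0104). ZNFX1, a helicase of mitochondrial membranes that senses RNA, went from 276, 240 and 264.5 CPM to 158, 161 and 166 CPM (1.61-fold lower; edgeR adjusted p = 0.0128). IRF1, a factor that induces many of these genes, went from 75.3, 94.2 and 77.5 CPM to 45.9, 55.1 and 51.7 CPM (1.62-fold lower; adjusted p = 0.0244). ZBP1, a sensor that starts necroptosis, was low in all libraries, at 1.71, 1.41 and 1.31 CPM against 0, 0.331 and 0.151 CPM (adjusted p = 0.0353). The adaptor MAVS (log2 0.09), IRF3 (0.21) and TBK1 (-0.10), which carry the signal to the interferon genes, did not pass (adjusted p = 0.81, 0.65 and 0.79). Calls in the list fell to 2 without DMSO replicate 1 or GW3965 replicate 3 and to 3 without DMSO replicate 2 or GW3965 replicate 1. RIGI kept its call in all 6 fits, and DDX60 lost it without GW3965 replicate 3 (adjusted p = 0.0551). IFIH1 and DHX58 lost theirs without either of DMSO replicates 1 and 2 or GW3965 replicates 1 and 3 (up to 0.0861 and 0.129), ZNFX1 without DMSO replicate 1 or GW3965 replicate 1 or 2 (up to 0.0685), IRF1 without any but DMSO replicate 3 (up to 0.0887) and ZBP1 without any DMSO replicate or GW3965 replicate 3 (up to 0.125).

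**Figure D3:**
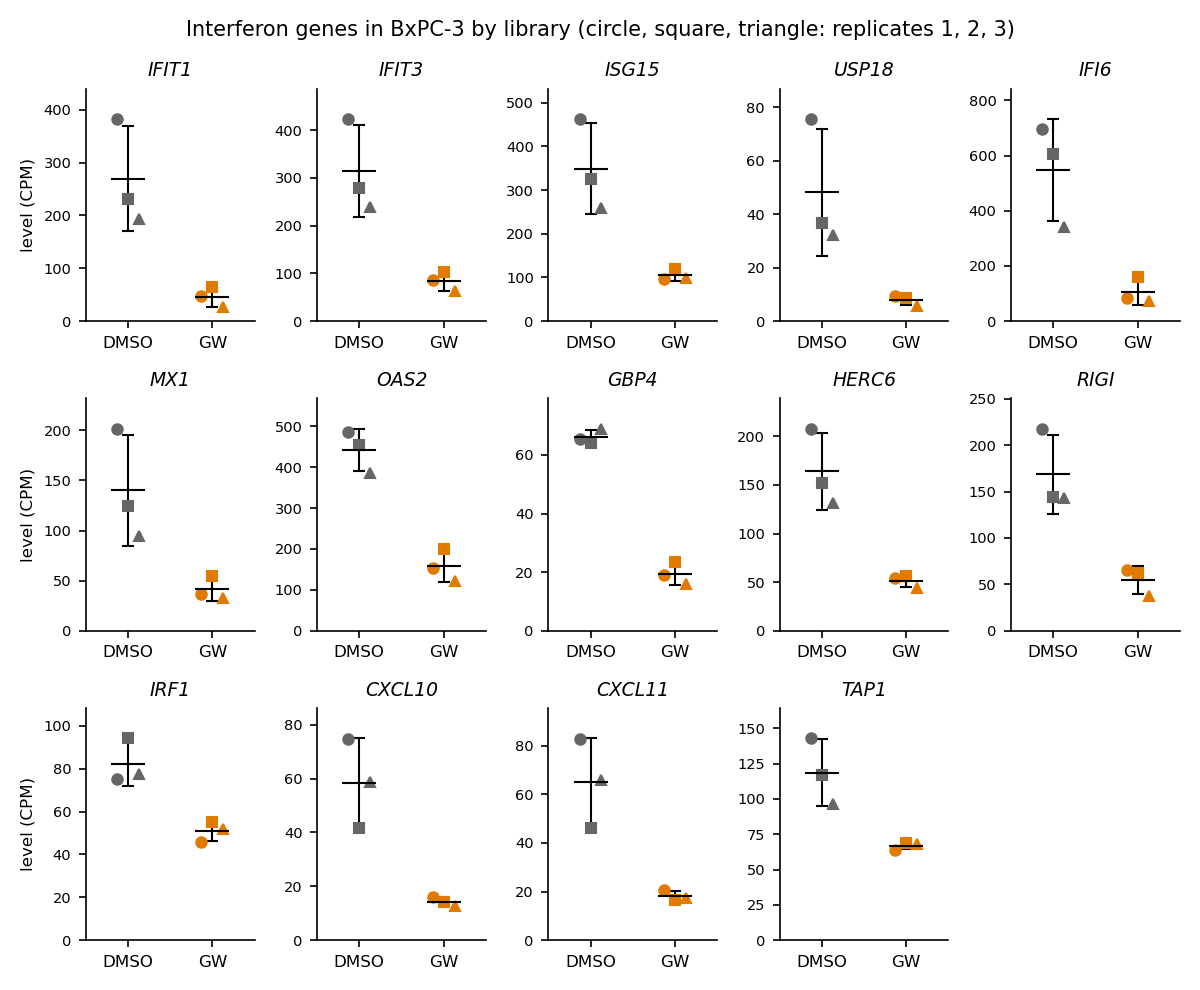
Levels in CPM (vertical, from 0) of 14 genes of the interferon pathway and its targets in each BxPC-3 library with DMSO (grey) or GW3965 (orange, "GW"); circle, square and triangle are replicates 1, 2 and 3, and bars are mean and SD. In each panel the 3 GW3965 points lie below the 3 DMSO points, and DMSO replicate 1 is the highest control in most panels, for example 75.5 CPM against 36.7 and 32.3 CPM in USP18.

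Many but not all promoters of these genes held a sequence that was not itself used to write the lists. The effector list holds genes known to be induced by interferon. The share of the interferon element in it is therefore not independent of how the list was chosen. Among 45 measured effectors with a promoter in the RefSeq table, 31 (68.9%) held the response element core GAAANNGAAA, printed above for ISG15, IFIT1, IFIT3 and IFI27, within 250 bases before to 50 after the start. It was present in 34 of 111 genes called lower (30.6%), in 1 of 67 called higher (1.49%, TXNRD1), in 2.85% of the 11828 tested genes with a promoter and in 3.65% of all 27305 promoters. Read the other way, 34 of the 337 tested genes with the core were called lower (10.1%), and their median log2 fold change was -0.11. The LXR element was in 2 of the 67 genes called higher (2.99%, ABCA1 and ACSL3), in none of the 111 called lower and in 0.186% of tested genes. The C/EBP-ATF core was in 2 of the 67 called higher (2.99%, ASNS and TMEM154), in 4 of the 111 called lower (3.60%) and in 1.80% of tested genes.

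Of 21 measured members of the class I pathway 3 fell and none rose (median log2 -0.35), and the list summed to 6492 ± 1118 CPM with DMSO and 4891 ± 205 CPM with GW3965. TAP1 (chr6:32845209-32853978), which pumps peptides into the ER, went from 143, 117 and 96.2 CPM to 64.2, 68.6 and 67.9 CPM (1.78-fold lower; edgeR adjusted p = 0.0214). The immunoproteasome subunits PSMB8, from 87.4, 82.9 and 69.1 CPM to 46.8, 56.6 and 55.2 CPM, and PSMB9, from 38.3, 36.03 and 24.6 CPM to 13.2, 18.1 and 16.9 CPM, fell 1.51-fold and 2.052-fold (adjusted p = 0.0256 and 0.0261). These 3 genes lie next to each other on chromosome 6, and PSMB9 overlaps both TAP1 and PSMB8 in the annotation, so their counts may share reads. B2M, the light chain, was at 491, 2003 and 414 CPM with DMSO and 646, 363 and 347 CPM with GW3965, so that DMSO replicate 2 alone stood high and the groups overlapped (log2 -1.101 ± 0.506; adjusted p = 0.42). The controls' summed level above includes that library. HLA-B (-1.01) and HLA-C (-0.28) did not pass (adjusted p = 0.15 and 0.74); reads of the HLA genes can match several of them. The 3 calls were lost without any library but DMSO replicate 3 (adjusted p up to 0.0825 for TAP1, 0.121 for PSMB8 and 0.117 for PSMB9).

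In the list of 28 measured chemokines and cytokines 4 fell and 1 rose (median log2 -0.33). CXCL10 (chr4:76021117-76023497), an interferon-induced ligand of CXCR3, went from 74.9, 41.5 and 58.6 CPM to 16.1, 14.3 and 12.6 CPM (4.07-fold lower; edgeR adjusted p = 0.00897). CXCL11, its neighbour and a ligand of the same receptor, went from 82.6, 46.3 and 65.8 CPM to 20.6, 16.7 and 17.3 CPM (3.57-fold lower; adjusted p = 0.0069). CCL5 went from 50.7, 19.5 and 44.9 CPM to 8.16, 8.62 and 15.2 CPM (3.61-fold lower; adjusted p = 0.0391). TNFSF10, the death ligand TRAIL, which interferon also induces, went from 65.9, 87.7 and 62.6 CPM to 19.9, 39.2 and 24.4 CPM (2.59-fold lower; adjusted p = 0.0307). The groups did not overlap in these 4. IL1A, a cytokine released by damaged epithelium, moved the other way, from 179, 138 and 198 CPM to 320, 261 and 299 CPM (1.71-fold higher; adjusted p = 0.0463). Chemokines known as NF-kB targets had estimates below 0 that did not pass, among them CXCL1 (log2 -0.29), CXCL2 (-0.37), CXCL3 (-1.08), CXCL8 (-0.43) and CCL20 (-0.56). Of 17 subunits and feedback genes of NF-kB edgeR called none (median log2 -0.13), with 2 lower at an unadjusted p under 0.05 and none called by DESeq2 or limma-voom. Calls lower in the chemokine list fell to 2 without DMSO replicate 1 or 3 and to 1 without GW3965 replicate 3. CXCL10 lost its call without GW3965 replicate 3 (adjusted p = 0.0514), CCL5 without any but DMSO replicate 2 (up to 0.149), TNFSF10 without any but GW3965 replicate 2 (up to 0.132) and IL1A without any 1 of the 6 libraries (up to 0.143).

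Of 36 measured genes for synthesis, transport and tRNA charging 7 rose and none fell, the median log2 fold change was 0.46, and 26 lay higher without overlap, against 8.64% of all genes tested. ASNS (chr7:97852118-97872542), which makes asparagine, was at 25.4, 30.0 and 20.9 CPM with DMSO and at 88.3, 92.3 and 51.4 CPM with GW3965. PHGDH, PSAT1 and SHMT2 carry out steps of serine and glycine synthesis. PHGDH went from 63.7 ± 5.48 CPM to 108 ± 16.9 CPM (1.70-fold; edgeR adjusted p = 0.0426). PSAT1 went from 62.1, 68.1 and 59.2 CPM to 168, 165.5 and 116 CPM (2.38-fold; adjusted p = 0.0198). SHMT2 went from 146, 144 and 134 CPM to 192, 224 and 221 CPM (1.502-fold; adjusted p = 0.0193). All GW3965 libraries were above all controls in the 4 enzymes, and GW3965 replicate 3 was the lowest of the 3 in ASNS, PHGDH and PSAT1. The transporters SLC1A4, from 7.54, 8.02 and 8.43 CPM to 16.5, 15.6 and 14.4 CPM, and SLC38A2, from 750, 904 and 951.5 CPM to 1656, 1451 and 1270 CPM, rose 1.94-fold and 1.68-fold (adjusted p = 0.0201 and 0.0160). XPOT, which exports tRNA from the nucleus, went from 232, 225 and 238 CPM to 367, 338 and 286 CPM (1.43-fold; adjusted p = 0.0426). Without one library the 7 calls became 0 to 4, 4 when GW3965 replicate 3 was left out, 3 for DMSO replicate 3, 1 for GW3965 replicate 1 and none in edgeR for either of DMSO replicates 1 and 2 or GW3965 replicate 2. Of the full set of 12 BxPC-3 libraries, edgeR put 26 members higher at an unadjusted p under 0.05, DESeq2 called 19 and limma-voom 9. PHGDH and SLC1A4 lost their calls without any 1 of the 6 libraries (adjusted p up to 0.158 and 0.0960), ASNS and PSAT1 without any but GW3965 replicate 3 (up to 0.0893 and 0.0904), SHMT2 without any but GW3965 replicate 1 (up to 0.0733), XPOT without any but GW3965 replicate 3 (up to 0.150) and SLC38A2 without either of DMSO replicates 1 and 2 or GW3965 replicates 1 and 2 (up to 0.0821).

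Regulators of the integrated stress response, the pathway that raises ATF4, had a similar median (log2 0.38) with 1 of 23 called. TRIB3, an ATF4 target that damps it, went from 37.1, 38.9 and 34.5 CPM to 95.7, 102 and 75.8 CPM, with no overlap. ATF4 itself was at 373, 384 and 322 CPM against 465, 493 and 447 CPM, without overlap but not called (log2 0.38 ± 0.09; edgeR adjusted p = 0.0822). Its partner DDIT3 (log2 0.66; adjusted p = 0.39) and the glutathione-degrading CHAC1 (1.02; 0.088) did not pass. TRIB3 lost its call without any library but GW3965 replicate 3 (up to 0.0823). Chaperones of the ER, which the unfolded protein response induces, lay on the other side of 0. Of 22 measured edgeR called none, the median log2 fold change was -0.21, 9 were lower at an unadjusted p under 0.05, DESeq2 called 3 lower and limma-voom none. The chaperone HSPA5 was at -0.35 (adjusted p = 0.23).

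In the antioxidant list 1 of 24 genes rose (median log2 0.14). TXNRD1, thioredoxin reductase, went from 151, 129 and 112.5 CPM to 351, 324 and 204 CPM (2.24-fold; edgeR adjusted p = 0.0244). At an unadjusted p under 0.05, 7 of the 24 were higher, DESeq2 called 4 higher and limma-voom 1, and 19 had estimates above 0. Other targets of the same factor, NRF2, had log2 fold changes of 0.11 in NQO1, 0.01 in SRXN1 and 0.15 in GCLM and did not pass (edgeR adjusted p = 0.73, 0.99 and 0.85). The call of TXNRD1 was lost without any library but GW3965 replicate 3 (up to 0.0989).

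All 35 measured DNA replication genes had estimates below 0 (median log2 -0.28), but edgeR called none. Of the 35, 13 lay lower without overlap, against 8.69% of all genes tested. At an unadjusted p under 0.05 there were 15 lower, against 1097 of all 18042 genes tested. DESeq2 called 2 lower and limma-voom none. Examples are GINS2, a part of the replicative helicase (-0.58; edgeR adjusted p = 0.14), the clamp PCNA (-0.38; 0.36) and MCM4 (-0.40; 0.24). Of 28 mitosis genes edgeR called none (median log2 -0.17), 1 was lower at an unadjusted p under 0.05, and DESeq2 and limma-voom called none; MKI67 was at -0.23 (adjusted p = 0.73). Ribosomal protein genes all had estimates above 0 (22 of 22; median log2 0.33), with 14 higher at an unadjusted p under 0.05, 5 called higher by DESeq2 and 1 by limma-voom. By edgeR 1 of them, RPL3, was called, from 791, 649 and 691 CPM to 984, 1122 and 1229 CPM (1.57-fold; adjusted p = 0.0313), and it lost its call without any library but GW3965 replicate 1 (up to 0.117). The 13 mitochondrially encoded genes had a median of 0.18, edgeR called none, 4 were higher at an unadjusted p under 0.05, and DESeq2 and limma-voom called none.

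Genes of mucous and secretory epithelium fell in a few members. In the list of classical pancreatic tumour genes 3 of 26 measured fell and none rose (median log2 -0.42). CEACAM1, an adhesion molecule, went from 135.5, 133 and 139 CPM to 68.2, 88.0 and 82.1 CPM (1.71-fold lower; edgeR adjusted p = 0.00608) and kept its call in all 6 fits without a library. SPINK4, a protease inhibitor of goblet cells, was low, at 4.71, 3.99 and 2.57 CPM against 0.556, 0.663 and 0.756 CPM. MUC5AC, a gel-forming mucin, was at 2.83, 4.61 and 1.94 CPM against 0.727, 0.663 and 0.504 CPM (4.90-fold lower; adjusted p = 0.0188). The groups did not overlap in the 3. MUC5AC kept its call only without DMSO replicate 3 (adjusted p up to 0.0799). ELF3, an epithelial transcription factor, was the 1 called gene of 11 in the ductal list, from 91.2, 103 and 88.7 CPM to 45.5, 56.5 and 48.5 CPM (1.88-fold lower; adjusted p = 0.00395). Ductal keratins KRT7 (0.36), KRT8 (-0.18) and KRT19 (-0.19) did not pass. Squamous and basal-like genes were not called by edgeR (0 of 22; median log2 0.10; 6 higher and 1 lower at an unadjusted p under 0.05), while DESeq2 called 4 higher and limma-voom none; KRT16 (1.60; adjusted p = 0.0729), KRT14 (0.82; 0.0882) and the growth factor AREG (0.75; 0.0566) were nearest.

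EGR3 was the 1 of 16 immediate early genes called, from 2.42, 2.20 and 2.41 CPM to 1.154, 0.900 and 1.21 CPM (2.15-fold lower; edgeR adjusted p = 0.0372), and lost its call without any 1 of the 6 libraries (up to 0.129). Iron and metallothionein genes were not called by edgeR (0 of 14; 2 higher and 1 lower at an unadjusted p under 0.05; DESeq2 called 1 lower, limma-voom none). The plot of list members shows the order of the lists by their medians.

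**Figure D4:**
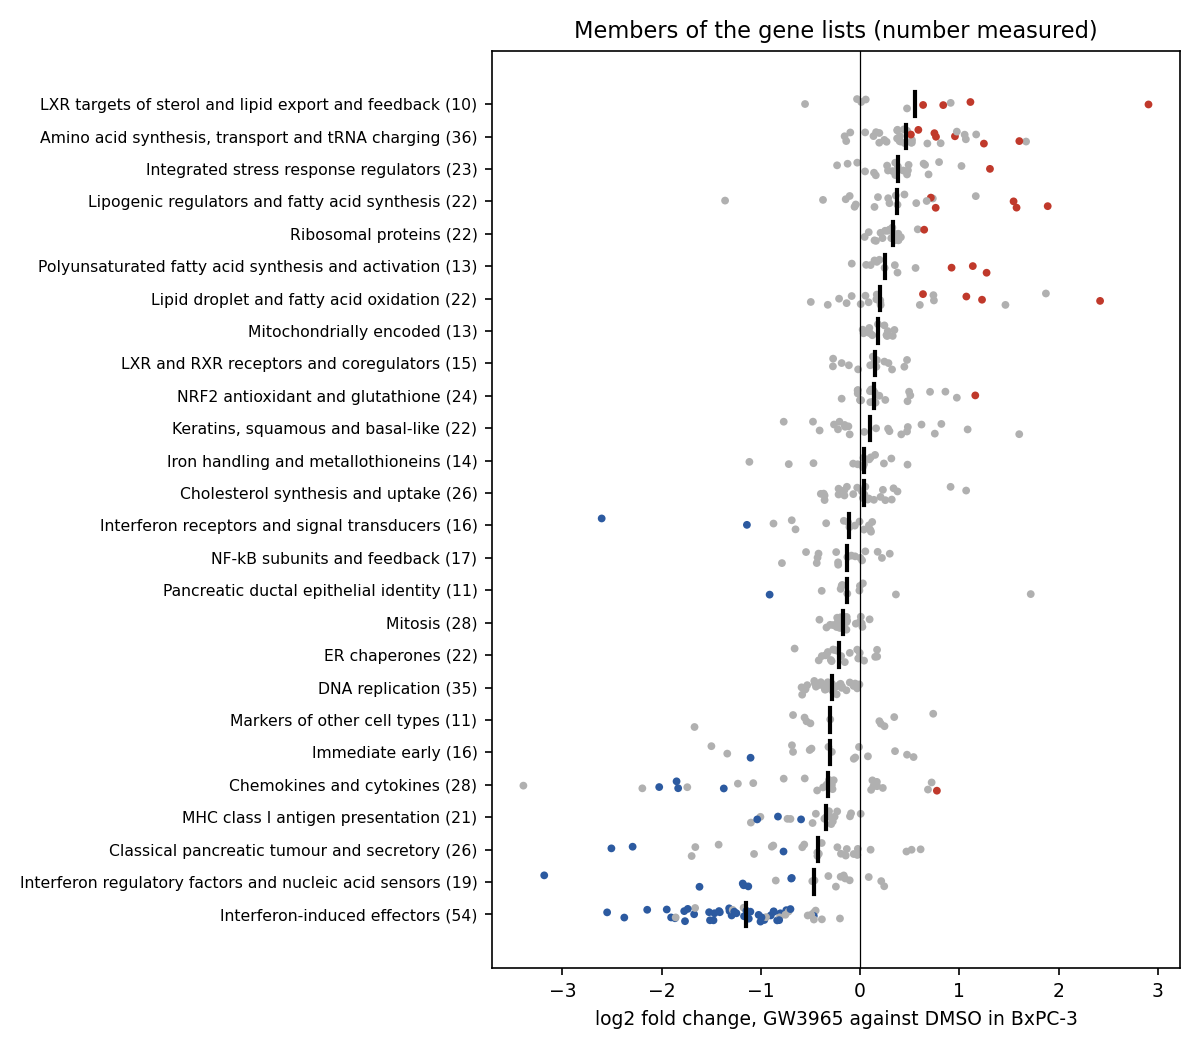
Log2 fold changes of GW3965 against DMSO in BxPC-3 (horizontal) for the members of each gene list with 10 or more measured genes (vertical, number measured in brackets), 1 point a gene; red and blue points are called higher and lower by edgeR, grey points are not, and black bars are medians. The effector list lies lowest (median -1.15, 39 of 54 called) and the LXR targets highest (0.55, 4 of 10 called).

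Outside the lists 152 genes were called, and the genes described are from the 12 highest and 12 lowest with a mean of at least 2 CPM. STK39, a kinase that controls ion transporters, had the smallest p among those that rose, from 48.5, 49.6 and 53.6 CPM to 116, 124 and 106 CPM (2.28-fold; edgeR adjusted p = 0.00306). ANKRD1, a muscle ankyrin repeat protein and known YAP target, went from 102.5, 63.4 and 70.1 CPM to 231, 157 and 146.5 CPM (2.27-fold; adjusted p = 0.0171). S1PR1, a receptor for sphingosine 1-phosphate, went from 3.17, 2.87 and 3.09 CPM to 5.77, 8.85 and 8.12 CPM (2.49-fold; adjusted p = 0.0151). ETNK2, which starts phosphatidylethanolamine synthesis, rose 2.11-fold (adjusted p = 0.0112), and CYP4F11, a fatty acid hydroxylase, 1.99-fold (adjusted p = 0.0121). SLC13A3, a carrier of dicarboxylates, rose 2.16-fold (adjusted p = 0.00813), and SEMA5A, a guidance molecule, 2.06-fold (adjusted p = 0.0217). JDP2 (2.30-fold), PRUNE1 (1.98-fold), TINF2 (1.95-fold), the mitochondrial valine tRNA gene MT-TV (2.39-fold) and the pseudogene GOLGA2P5 (2.57-fold), which resembles GOLGA2 and is uncertain, completed the set. None of the 12 had overlapping groups, which the rule required. STK39 and SLC13A3 kept their calls in all 6 fits without a library. JDP2 and PRUNE1 lost them without any 1 (adjusted p up to 0.133 and 0.154), SEMA5A without any but GW3965 replicate 3 (up to 0.0893), TINF2 and MT-TV without any but GW3965 replicate 1 (up to 0.106 and 0.0893) and GOLGA2P5 without any but DMSO replicate 1 (up to 0.135). S1PR1 lost it without either of DMSO replicates 1 and 2 or GW3965 replicates 2 and 3 (up to 0.0685), ANKRD1 without DMSO replicate 2 or 3 (up to 0.0709), ETNK2 without DMSO replicate 1 or 2 (up to 0.0647) and CYP4F11 without DMSO replicate 1 (0.0685).

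Of the 12 that fell most, several are known interferon-induced genes that the lists did not hold. IDO1, which degrades tryptophan, was at 12.4, 9.93 and 12.1 CPM with DMSO and 2.14, 3.93 and 3.88 CPM with GW3965 (3.47-fold lower; edgeR adjusted p = 0.0098). LAMP3 was at 25.5, 17.6 and 12.8 CPM against 6.20, 6.35 and 4.44 CPM (3.28-fold lower; adjusted p = 0.01155). BATF2 (3.47-fold lower), the lectin LGALS9 (3.20-fold) and ETV7 (3.19-fold) fell too, as did USP41 (4.81-fold), a near-copy of USP18 whose reads cannot be told from it with certainty. MMP13, a collagenase, went from 15.1, 12.3 and 8.90 CPM to 3.76, 2.65 and 1.82 CPM (4.38-fold lower; adjusted p = 0.00757). HAS2, which makes hyaluronan, went from 64.3, 39.3 and 56.5 CPM to 22.9, 11.9 and 14.3 CPM (3.25-fold lower; adjusted p = 0.0155). The GW3965 libraries were below the controls in each. TCN1, a vitamin B12 carrier of mucous secretions, fell 3.83-fold (adjusted p = 0.00355), B3GALT5, a galactosyltransferase, 3.86-fold (0.00314) and GMPR, of purine recycling, 3.22-fold (0.0188). MMP13, TCN1, B3GALT5 and IDO1 kept their calls without each of the 6 libraries. BATF2 lost it without any 1 (up to 0.171), GMPR without any but DMSO replicate 3 (up to 0.0825), LGALS9 and ETV7 without either of DMSO replicates 1 and 2 or GW3965 replicates 1 and 3 (up to 0.0823 and 0.0753), HAS2 without DMSO replicate 1 or GW3965 replicate 2 or 3 (up to 0.0745), USP41 without DMSO replicate 1 or GW3965 replicate 3 (up to 0.0597) and LAMP3 without GW3965 replicate 3 (0.0580).

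Among the most abundant genes called, EEF1A1P5, a pseudogene that shares its sequence with the elongation factor EEF1A1 and is uncertain, went from 1571, 1474 and 1676 CPM to 1980, 2321 and 2475 CPM (1.44-fold; edgeR adjusted p = 0.0409). GLUL, glutamine synthetase, went from 473, 524 and 408 CPM to 259, 294 and 290.0 CPM (1.67-fold lower; adjusted p = 0.0401). ANO1, a chloride channel, went from 461, 359 and 476 CPM to 245, 184 and 262 CPM (1.88-fold lower; adjusted p = 0.0208). IGFBP6, which binds insulin-like growth factor II, went from 526, 497 and 457 CPM to 292, 356 and 373 CPM (1.45-fold lower; adjusted p = 0.0458). PRXL2A, a redox protein named for its difference from other lines, went from 192, 218 and 199 CPM to 117, 107 and 130 CPM (1.72-fold lower; adjusted p = 0.0237). The groups were apart in all 5 genes. IGFBP6 and PRXL2A lost their calls without any 1 library (up to 0.178 and 0.0899), GLUL without any but DMSO replicate 3 (up to 0.130), EEF1A1P5 without any but GW3965 replicate 1 (up to 0.149) and ANO1 without either of DMSO replicates 1 and 3 or GW3965 replicates 1 and 2 (up to 0.0893).

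GW3965 was also set against 1E5 and 3A4 directly, in the same line at the same dose and time. Both contrasts use the same 3 GW3965 libraries and are given side by side. Against 1E5, 43 genes were higher with GW3965 (0.238% of those tested) and 72 lower (0.399%). Against 3A4, 617 were higher (3.42%) and 558 lower (3.09%). The 115 calls against 1E5 became 53, 54 and 47 without GW3965 replicate 1, 2 or 3 and 69, 55 and 48 without 1E5 replicate 1, 2 or 3. The 1175 calls against 3A4 became 363 and 508 without GW3965 replicate 2 or 3 and 447, 503 and 482 without 3A4 replicate 1, 2 or 3. ABCA1, at 337 ± 15.9 CPM with GW3965, was at 38.0 ± 13.5 CPM with 1E5 and 36.3 ± 9.45 CPM with 3A4, against 44.9 ± 11.6 CPM with DMSO. The difference of GW3965 was 3.15 ± 0.30 on the log2 scale from 1E5 (edgeR adjusted p = 0.00401) and 3.22 ± 0.30 from 3A4 (adjusted p = 0.00055). All 5 called lipogenic genes were higher with GW3965 than with 1E5, and 11 of the 22 measured members were higher, and 1 lower, than with 3A4. SCD was at 1463 ± 762 CPM with 1E5 and at 624 ± 123 CPM with 3A4. In the cholesterol list, where edgeR gave no call for GW3965 against DMSO and DESeq2 2, 9 of 26 genes were higher with GW3965 than with 3A4 and 1 than with 1E5. Levels with 3A4 were themselves below those with DMSO. The median log2 fold change of 3A4 against DMSO was -0.49 in the cholesterol list and -0.33 in the lipogenic list. The cholesterol list summed to 2133 ± 97.4 CPM with 3A4, 3118 ± 160 CPM with DMSO and 3303 ± 314 CPM with GW3965.

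In the effector list 16 of 54 genes were lower with GW3965 than with 1E5 and 24 of 54 lower than with 3A4. IFIT1, at 46.0 ± 19.0 CPM with GW3965, was at 164 ± 22.4 CPM with 1E5 (log2 difference -1.83 ± 0.33; edgeR adjusted p = 0.0346) and at 136 ± 35.7 CPM with 3A4 (-1.56 ± 0.33; adjusted p = 0.0202), against 270 ± 99.3 CPM with DMSO. USP18, at 7.90 ± 1.92 CPM, was at 26.01 ± 1.98 CPM with 1E5 and at 30.8 ± 7.60 CPM with 3A4. The median log2 fold change of the list against the same DMSO libraries was -1.15 with GW3965, -0.31 with 1E5 and -0.41 with 3A4, and these 3 values share their controls. Keratin and basal-like genes, without a call by edgeR against DMSO and with 4 by DESeq2, were higher with GW3965 than with 3A4 in 9 of 22 cases. Here too 3A4 lay below DMSO, with a median log2 fold change of -0.51 against 0.10 for GW3965. The list summed to 6029 ± 124 CPM with 3A4, 9285 ± 2012 CPM with DMSO and 9987 ± 1166 CPM with GW3965.

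For some genes called with GW3965 against DMSO, the difference from another ligand did not pass. TXNRD1 was at 293 ± 78.2 CPM with GW3965 and at 242 ± 40.0 CPM with 1E5 (log2 difference 0.28, 95% interval -0.19 to 0.74; edgeR adjusted p = 0.68). IL1A was at 293 ± 30.0 CPM with GW3965 and at 274 ± 35.6 CPM with 3A4 (0.10, interval -0.26 to 0.46; adjusted p = 0.76). GLUL was at 281 ± 19.1 CPM with GW3965 and at 284 ± 11.3 CPM with 3A4 (-0.01, interval -0.34 to 0.32; adjusted p = 0.97). These intervals leave room for differences of up to about their bounds. SLC13A3 was at 6.32 ± 0.347 CPM with GW3965 and at 5.55 ± 0.721 CPM with 3A4 (0.19, interval -0.16 to 0.53; adjusted p = 0.51).

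The response of BxPC-3 was compared with that of the other lines by testing the difference between responses in 1 fit of all 36 libraries and 22132 genes. Depth was lower in MIA PaCa-2, whose DMSO and GW3965 libraries held 2701393 to 13631719 counts. The response was higher in BxPC-3 than in MIA PaCa-2 for 5 genes (0.0226%) and lower for 31 (0.14%), and it differed from PANC-1 for 11 genes (0.0497%), all lower in BxPC-3. In that last contrast edgeR put 431 of the 22132 genes higher and 618 lower at an unadjusted p under 0.05. Counts at an unadjusted p include genes that pass by chance. DESeq2 called 22 higher and 55 lower. The 36 differences from MIA PaCa-2 became 18 without BxPC-3 GW3965 replicate 3 and 23 without BxPC-3 DMSO replicate 3. The 11 from PANC-1 became 7, 7 and 6 without BxPC-3 GW3965 replicate 1, 2 or 3, 7 without PANC-1 GW3965 replicate 2 or 3, and 5 without PANC-1 DMSO replicate 1. In fits of their own, GW3965 raised 68 genes (0.418%) and lowered 17 (0.105%) in MIA PaCa-2, and raised 8 (0.0431%) and lowered 1 (0.00539%) in PANC-1. Of the 239 genes called in BxPC-3, 15 were also called in MIA PaCa-2 (6.28% of the first list, 17.7% of the second), all in the same direction, and 4 in PANC-1 (1.67% and 44.4%), again all in the same direction. The 15 were ABCA1, SREBF1, FASN, SCD, ACSL1, ACSL3, ACADVL, ASNS, PHGDH, PSAT1, SHMT2, SLC1A4, TRIB3, JDP2 and DHRS3, which was lower, and the 4 were ABCA1, MYLIP, LPCAT3 and ME1.

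Few interferon genes passed the test of a difference between lines. In the 36-library fit the log2 response of USP18 was -2.62 ± 0.25 for BxPC-3, 0.33 ± 0.28 for MIA PaCa-2 and -0.19 ± 0.24 for PANC-1, a difference of -2.95 ± 0.38 from MIA PaCa-2 (edgeR adjusted p = 0.000247) and of -2.43 ± 0.35 from PANC-1 (0.00119). IFIT1 was at -2.57 ± 0.28, -0.78 ± 0.28 and -0.24 ± 0.27 in the same order (differences with adjusted p = 0.0476 and 0.00516). Both genes were lower with GW3965 in BxPC-3 beyond the change in either other line. The control level of ISG15 in the same fit was 373 ± 109 CPM for BxPC-3, 18.4 ± 4.28 CPM for MIA PaCa-2 and 32.1 ± 3.50 CPM for PANC-1, and its response differed from PANC-1 (-1.74 ± 0.28; adjusted p = 0.00459) but the difference from MIA PaCa-2 did not pass (-0.99 ± 0.30; adjusted p = 0.26). RIGI differed from PANC-1 (-1.57 ± 0.28; adjusted p = 0.0152), and IFI35 from both (-1.78 ± 0.38 and -1.82 ± 0.36; adjusted p = 0.0415 and 0.0398). Of 54 effectors 2 differed from MIA PaCa-2 and 3 from PANC-1, and the list's median response was -0.35 and -0.06 in those lines. With only the 4 compared groups in the fit, the calls of USP18, IFI35 and IFIT1 were lost against both lines and that of RIGI against PANC-1 (adjusted p from 0.0914 for USP18 against MIA PaCa-2 to 0.366 for IFIT1). With RLE scaling IFIT1 lost its difference from MIA PaCa-2 (adjusted p = 0.0556) and IFI35 that from PANC-1 (0.0578). Single libraries ended several of these calls. RIGI lost its difference from PANC-1 without BxPC-3 GW3965 replicate 3 or DMSO replicate 1, PANC-1 DMSO replicate 1 or 3, or PANC-1 GW3965 replicate 2 (adjusted p up to 0.0701). IFIT1 lost its difference from MIA PaCa-2 without any of the 12 but BxPC-3 GW3965 replicate 2, BxPC-3 DMSO replicate 3 and MIA PaCa-2 GW3965 replicate 2 (up to 0.177). IFI35 lost that from MIA PaCa-2 without any but BxPC-3 DMSO replicate 3 and MIA PaCa-2 GW3965 replicate 1 (up to 0.157), and that from PANC-1 without any but BxPC-3 DMSO replicate 3 (up to 0.175).

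Among lipid genes the response of ABCG1 differed from both other lines. It was -0.05 ± 0.36 for BxPC-3, 3.05 ± 0.39 for MIA PaCa-2 and 5.16 ± 0.43 for PANC-1 (differences with edgeR adjusted p = 0.00466 and 6.15e-06). The response of ABCA1 was 2.89 ± 0.33, 2.91 ± 0.35 and 4.70 ± 0.36, and neither difference passed (adjusted p = 1 and 0.22). FASN was at 1.53 ± 0.22, 1.29 ± 0.22 and 1.04 ± 0.21, and neither difference passed (0.24 ± 0.30 and 0.49 ± 0.30). PRXL2A fell in BxPC-3 (-0.80 ± 0.15) and rose in MIA PaCa-2 (0.79 ± 0.17; difference -1.60, adjusted p = 0.00106), and GLUL differed from MIA PaCa-2 (-1.36 ± 0.26; adjusted p = 0.0173). ATF4 was at 0.36 ± 0.14 in BxPC-3 and 1.32 ± 0.14 in MIA PaCa-2 (difference -0.96; adjusted p = 0.0224), and the stress response list had a median of 1.33 there against 0.38 in BxPC-3. ASNS did not differ past the threshold (-0.18 ± 0.35; adjusted p = 1). The calls of ABCG1, ATF4 and GLUL against MIA PaCa-2 were lost with only the 4 compared groups, and that of GLUL without MIA PaCa-2 GW3965 replicate 2 (adjusted p = 0.128). ATF4 lost its call without BxPC-3 GW3965 replicate 1 or 3, BxPC-3 DMSO replicate 1 or 2, MIA PaCa-2 GW3965 replicate 1 or 2, or MIA PaCa-2 DMSO replicate 2 or 3 (up to 0.0793).

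**Figure D5:**
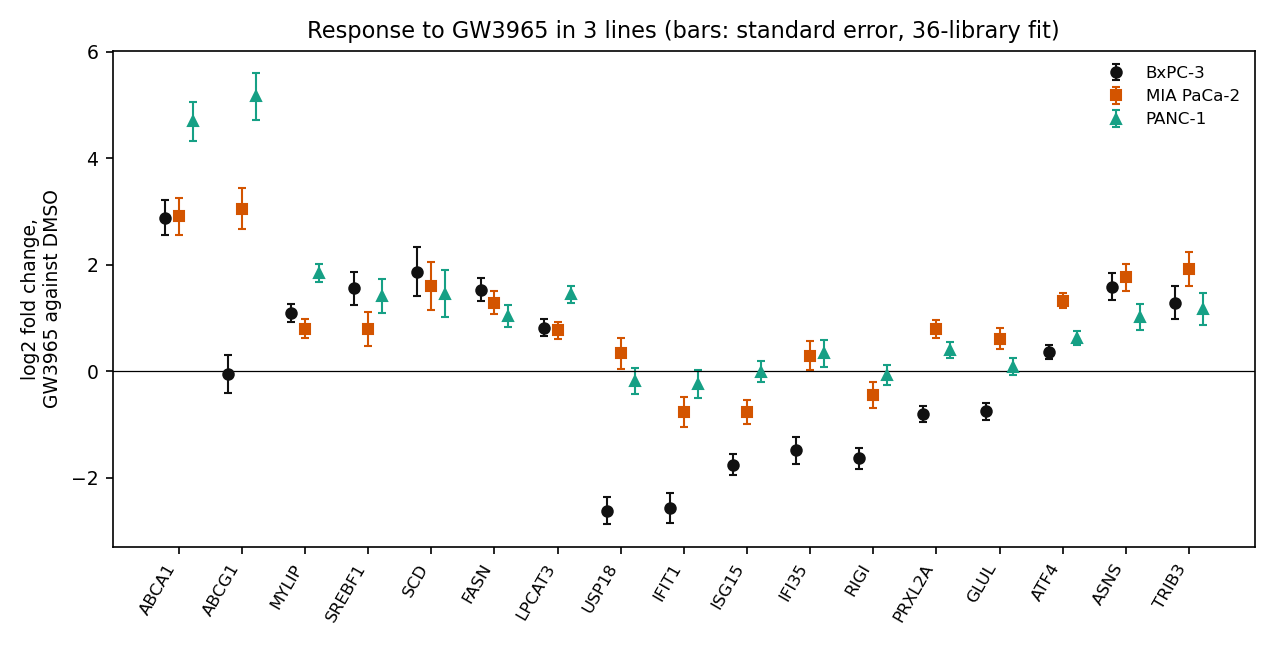
Log2 fold change of GW3965 against DMSO (vertical) for 17 genes (horizontal) in BxPC-3 (black circles), MIA PaCa-2 (orange squares) and PANC-1 (green triangles), from the fit of 36 libraries; bars are standard errors. USP18 and IFIT1 lie lower in BxPC-3 (-2.62 and -2.57) than in the other lines, and ABCG1 lies near 0 in BxPC-3 and above it in the others (3.05 and 5.16).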

How the data were processed

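RNA sequencing was done on 36 libraries, 3 for each of 12 groups (3 lines by 4 treatments), and the 6 libraries of BxPC-3 with GW3965 or DMSO are the comparison here. The values are whole-number counts per gene, deposited by the authors as 1 table and not normalized. Per the submitters' processing notes the build was GRCh38 and the tools named are StringTie 1.3.1c, SAMtools 1.3, HISAT2 2.0.2 and Trim Galore 0.4.4, whose roles and order are not given. Annotation, strand setting and treatment of multi-mapped reads were each not given in the sources used here, so genes with near-identical copies or antisense partners are uncertain. Of 58658 lines, 407 naming a transcript and 8 naming an assembled locus were left out (at most 0.00396% of a library's counts). This left 58243 genes, 57532 of them with a symbol from a separate list of gene names. Gene types and coordinates are from GENCODE release 29, which held 57980 of the genes.

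From the counts, edgeR 4.0.16 in R 4.3.3 was run with TMM scaling, its default filter on low counts (minimum count 10, minimum total 15) and its quasi-likelihood test on the 12 BxPC-3 libraries (8 residual degrees of freedom), with Benjamini-Hochberg adjustment over all genes tested and a threshold of 0.05. Differences between lines are interaction contrasts in 1 fit of all 36 libraries. The scripts were tested on simulated data. DESeq2 1.42.0, limma 3.58.1 (voom), RLE scaling, no filter, a replicate block, fewer or more libraries and leaving out each library in turn were alternatives. The titles call the 3 libraries of a group biological replicates, while nothing in the labels names separate cultures. The p-values therefore cover the spread within these groups of 3, which may be technical. The biological coefficient of variation was 23.4%.

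Genes were named by a rule: the up to 8 called genes with the smallest p in each list, other list members as examples, the 12 highest and 12 lowest fold changes outside the lists among called genes without overlap and with a mean of at least 2 CPM, the 6 called genes with the highest level in each direction, and the 6 with the smallest p of the difference from each other line. Some genes that this rule names are not reported here. The comparison, the gene lists and the alternatives were chosen with earlier results of these data known. Promoters are RefSeq's, from 250 bases before to 50 bases after the start.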

Additional observations from a re-analysis of the deposited data

Results flagged for a closer look

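These genes were taken from a short list chosen by hand. Each was kept because its response to GW3965 differed between BxPC-3 and another line by a test of the difference itself (edgeR, 36 libraries, adjusted p under 0.05). They are a part of the 36 genes that differed from MIA PaCa-2 and the 11 that differed from PANC-1. None of the 5 genes with a higher response in BxPC-3 than in MIA PaCa-2 is among them. Against MIA PaCa-2, the response of BxPC-3 was lower on the log2 scale for USP18 (-2.95), PRXL2A (-1.60), GLUL (-1.36), IFI35 (-1.78), IFIT1 (-1.79), ABCG1 (-3.10), ATF4 (-0.96) and the stress cytokine GDF15 (-2.60). LAMP3 differed from MIA PaCa-2 with an adjusted p of 0.00466, and no fold is given because the MIA PaCa-2 libraries with DMSO had no count of it.

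Against PANC-1, the differences were -2.43 for USP18, -1.20 for PRXL2A, -3.41 for LAMP3, -1.74 for ISG15, -1.57 for RIGI, -1.82 for IFI35, -2.32 for IFIT1 and -5.21 for ABCG1. LAMP3 was at 19.9 ± 6.76 CPM with DMSO and 5.98 ± 1.14 CPM with GW3965 in BxPC-3 and at 9.78 ± 5.92 and 31.2 ± 13 CPM in PANC-1. GDF15 lost its difference without BxPC-3 GW3965 replicate 1 or 3, BxPC-3 DMSO replicate 2, MIA PaCa-2 GW3965 replicate 1, or MIA PaCa-2 DMSO replicate 2 or 3 (adjusted p up to 0.0835). PRXL2A lost that from PANC-1 without BxPC-3 GW3965 replicate 1 or 2, BxPC-3 DMSO replicate 2, PANC-1 GW3965 replicate 2 or 3, or PANC-1 DMSO replicate 1 or 3 (up to 0.0887). With only the compared groups in the fit, GDF15 lost its difference from MIA PaCa-2 (adjusted p = 0.0708) and LAMP3 that from PANC-1 (0.0945). Line and culture medium cannot be told apart in any of these differences.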

How the results depend on the processing

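Of 239 genes called (86 higher, 153 lower), DESeq2 gave 599 (287 and 312), a replicate block 478 (206 and 272), only the compared groups 90 (32 and 58) and all 36 libraries 110 (41 and 69); without a filter 48 were higher. The 115 calls against 1E5 became 74 without a filter, 545 with DESeq2, 311 with the block and 18 with only the compared groups, and the 1175 against 3A4 became 707, 2156, 2556 and 650. The 36 differences from MIA PaCa-2 became 160 with DESeq2, 70 with the block and 3 with only the compared groups, and the 11 from PANC-1 became 77 with DESeq2 and 23 with the block. With only the compared groups the LXR list had 2 calls, sensors 3, effectors 19, class I genes 0 and chemokines 2, and with all 36 libraries sensors 3, effectors 20, class I genes 1, chemokines 1 and classical genes 1. DESeq2 gave 8 lipogenic, 7 class I, 19 amino acid and 5 classical genes, and the block 9 lipogenic, 8 class I and 15 amino acid genes.

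Leaving out 1 library gave 68 to 151 calls (16 to 47 higher, 52 to 112 lower), 47 to 69 against 1E5, 363 to 1065 against 3A4, 18 to 46 differences from MIA PaCa-2 and 5 to 9 from PANC-1. By list it gave 1 to 3 LXR targets, 2 to 4 lipogenic, 1 to 2 polyunsaturated fatty acid, 1 to 4 droplet, 2 to 6 sensor, 14 to 38 effector, 0 to 4 class I, 1 to 3 chemokine, 0 to 4 amino acid and 2 to 3 classical genes. ABCG1 (log2 -0.03) reversed to 0.12 without GW3965 replicate 1, 0.14 without GW3965 replicate 3 and 0.20 without DMSO replicate 2, and its lowest value was -0.44, without GW3965 replicate 2. The cause was not tested.

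All 239 called genes kept their direction in every alternative that tested them. Their groups did not overlap, so leaving out a library or changing the fit could hardly reverse a direction. This count is therefore no measure of stability. Same-numbered DMSO and GW3965 libraries deviated together only weakly (correlations 0.03, 0.176 and 0.088), and the main fit did not take the numbers as pairs. GW3965 replicate 1 correlated better with DMSO replicate 3 (0.049). Between all BxPC-3 groups, however, every same-numbered correlation was above 0 (0.021 to 0.229). Those of unlike numbers ran from -0.146 to 0.064. What the numbers stand for was not tested, and with a replicate block 478 genes were called. No scaling moved the median of all genes by over 0.01. The median standard error of 0.204 limits what could be called, and low genes such as APOE rest on few counts.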

Other observations

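Some called genes outside the lists and the naming rule are given as values, chosen after they were seen. CEMIP, which degrades hyaluronan, went from 98.8, 118 and 103 CPM with DMSO to 36.5, 50.2 and 45.7 CPM with GW3965 (2.42-fold lower; edgeR adjusted p = 0.00355), beside the fall of HAS2, which makes it. The antisense gene HAS2-AS1 also fell (2.01-fold lower; adjusted p = 0.0244), but reads of the overlapping pair may not be told apart.

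DUOX2, which makes hydrogen peroxide at mucosal surfaces, went from 29.5, 32.0 and 29.8 CPM to 8.51, 13.9 and 8.72 CPM (2.94-fold lower; edgeR adjusted p = 0.00355). SLC6A14, an amino acid carrier, went from 47.8, 50.8 and 42.7 CPM to 15.4, 18.6 and 14.1 CPM (2.94-fold lower; adjusted p = 0.00306), unlike the amino acid carriers that rose. KLK10, a secreted protease, fell 2.19-fold (adjusted p = 0.00551). PIGR, which carries IgA across epithelium, was not called (3.83, 7.15 and 6.53 CPM against 2.27, 2.23 and 1.01 CPM; adjusted p = 0.0953) and stood at 25.7 ± 5.60 CPM with 3A4.

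ACAA2, of mitochondrial beta-oxidation, rose from 71.5, 68.3 and 81.3 CPM to 127, 137 and 136.7 CPM (1.81-fold; edgeR adjusted p = 0.0221). MDH1B, at 0.417, 0.831 and 0.514 CPM with DMSO (adjusted p = 0.0343), and BCL2L15, at 0.292, 0.914 and 0.316 CPM (adjusted p = 0.0378), had no count in the 3 GW3965 libraries, so no fold is given.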
